A study of Rattus norvegicus with 24 samples.

Results

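Of the 32883 genes in the kidney RNA-seq count table of this study, 9 were silent in one rat strain and expressed in the other. They were chosen by their raw read counts: at most 3 reads in each of the 6 libraries of one strain and at least 12 reads in each of the 6 libraries of the other. The rule found 5 genes silent in Brown Norway (BN) rats and 4 silent in Sprague Dawley (CD) rats. Because the rule used the counts of both strains, the strain contrast of these genes is given as a description, without a test. The ratios and counting intervals below describe the selected counts, and the selection itself pushes them up. The word silent stands here for this count rule, and only Zp2 had 0 reads in all 6 libraries of its silent strain.

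The libraries came from kidney cross-sections, with cortex and medulla, of outbred CD and inbred BN females that were non-pregnant (NP) or at day 18 of pregnancy (P18) after mating with males of their own strain. Each of the groups CD-NP, CD-P18, BN-NP and BN-P18 held 3 rats, whose age the labels give as 2 months and the growth protocol as 6 to 8 weeks. The reads on genes numbered 8274159 to 11879451 per library (median 9610369.5). Kidney identity was checked on 11 marker genes, of which 7 could be named in the table, and all 7 had at least 160 reads in every library. Among 31 markers of other cell types, 5 could be named. The names come from a published table of genes with a small p in these samples, so the named markers lean towards genes that differ. The mast cell proteases Mcpt1 and Mcpt4 summed to 0 to 1 read per CD library, to 20 to 69 reads in BN-NP and to 2 to 12 reads in BN-P18, with the other 4 mast cell markers not named. The 3 named neutrophil markers of 6 summed to 0 to 3 reads per library in CD-NP and 7 to 13 reads in CD-P18. In BN-NP they summed to 8 to 47 reads and in BN-P18 to 11 to 17 reads. The neutrophil markers went different ways at P18. S100a9 had 5 to 12 reads in CD-P18 and 2 to 6 in BN-P18. Retnlg had 0 to 2 and 1 to 3 reads, and Fpr2 0 to 1 and 5 to 13. The part of these cells in the strain difference of the 9 genes was not tested, and in a bulk tissue fewer cells of a type and less RNA per cell cannot be told apart.

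In general, a gene can be transcribed in one strain and not in another when the strains carry different versions of its regulatory sequence or of the gene itself, which was not tested for the genes described here. Reads of both strains were aligned to an assembly of the BN strain. A low count in CD therefore need not mean that a gene was not transcribed, and how well CD reads aligned to the CD-silent genes was not tested. In an outbred stock such as CD, the animals of a group need not carry the same version, whereas inbred BN rats are nearly identical by descent. Some of the genes found here have their known place outside the kidney, in the oocyte coat or the retina. The count table lists Ensembl identifiers alone, and the names used here were inferred by matching values of the published gene table to the same comparisons of the counts. This gave a name to 5 of the 9 genes (LOC499235, Zp2, Agbl4, Timm8a2 and Pde6c), while the other 4 are given by identifier and their function is not described.

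Among the genes with at least 12 reads in each of the 6 CD libraries (12723 genes), 5 were BN-silent, or 0.0393%. Of the 12713 genes with at least 12 reads in each of the 6 BN libraries, 4 were CD-silent, or 0.0315%. The same count rule applied to pregnancy in place of strain, over the 6 NP and the 6 P18 libraries, found 0 genes in either direction. No gene of this table was therefore silent in all rats of one stage and expressed in all rats of the other.

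**Figure D1:**
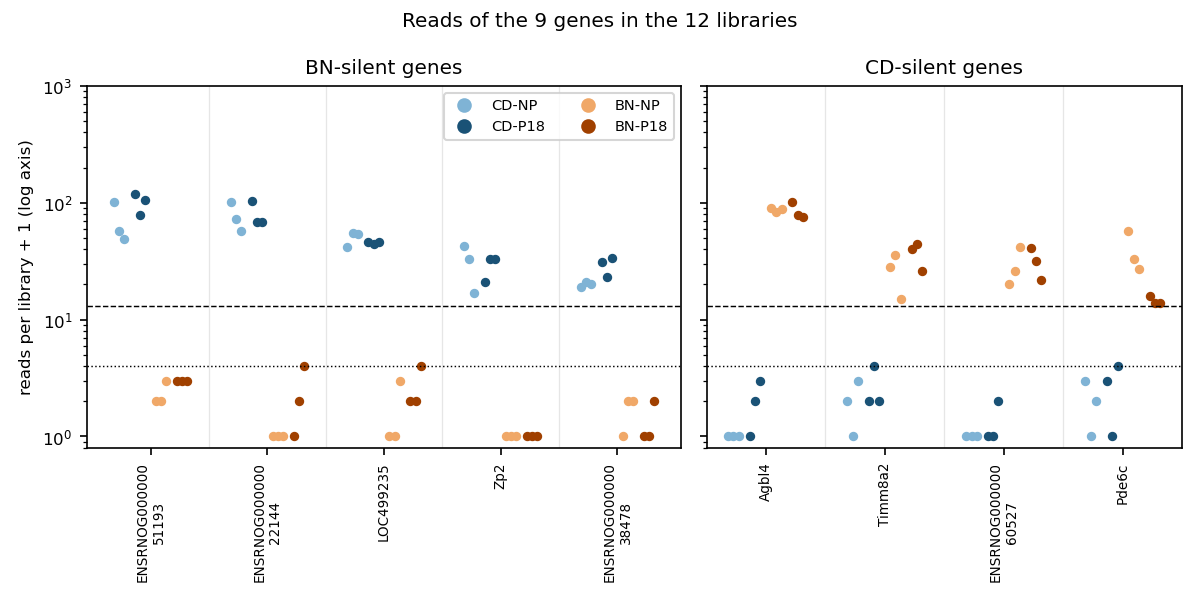
Reads per library plus 1, on a log axis, of the 5 BN-silent (left) and the 4 CD-silent genes (right), with 1 point for each of the 12 libraries, coloured by group. The dotted line marks 3 reads and the dashed line 12 reads, the thresholds by which the genes were chosen, and no point lies between them.

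Zp2 (ENSRNOG00000057989) encodes a glycoprotein of the zona pellucida, the coat of the oocyte to which sperm bind. It had 42, 32 and 16 reads in CD-NP and 20, 32 and 32 reads in CD-P18, against 0 reads in each of the 6 BN libraries. The CD level was 55.2 times the level that 3 reads over the BN libraries together would give. This floor of 3 reads was a set value, so the fold is not a confidence limit and is unlike the intervals of the other genes. Both pregnancy stages of CD held reads of the gene, and the lowest CD library was CD-NP replicate 3.

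LOC499235 (ENSRNOG00000031368), which RefSeq now lists as Cdv3l1, a relative of the carnitine deficiency-associated gene Cdv3, had 41, 54 and 53 reads in CD-NP and 45, 43 and 45 reads in CD-P18. In BN it had 0, 0 and 2 reads at NP and 1, 1 and 3 reads at P18. The level pooled over the libraries of a strain was 38.2 times higher in CD (95% exact counting interval 18.3 to 95.9). The coefficient of variation over the 6 CD libraries was 17.4%. Reads that align to several places were not counted on genes, so the counts of a gene with a close relative hold only the reads that align to 1 place.

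ENSRNOG00000051193 had 100, 56 and 48 reads in CD-NP and 117, 78 and 105 in CD-P18. It was the only BN-silent gene with reads in every BN library, at 1, 1 and 2 reads at NP and 2 reads in each rat at P18. The pooled level was 47.95 times higher in CD (95% exact counting interval 25.9 to 100.6).

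ENSRNOG00000022144 had 100, 72 and 56 reads in CD-NP and 102, 67 and 67 reads in CD-P18. In BN it had 0 reads in each NP library and 0, 1 and 3 reads at P18. The ratio of the pooled levels was 110.4 (95% exact counting interval 42.8 to 406.7), and the highest BN library reached the limit of the rule.

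ENSRNOG00000038478 had 18, 20 and 19 reads in CD-NP and 30, 22 and 33 reads in CD-P18. Its BN libraries had 0, 1 and 1 reads at NP and 0, 0 and 1 reads at P18, and the ratio was 45.03 (95% exact counting interval 15.1 to 221). The intervals of both sets cover counting error only, with the reads of 6 libraries pooled, since the spread between rats is not part of them. They also make no allowance for the choice of the genes by these same counts.

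Agbl4 (ENSRNOG00000008011) encodes a cytosolic carboxypeptidase that removes glutamates from the tails of tubulin, a modification found on the microtubules of cilia and neurons. It was CD-silent, with 0 reads in each CD-NP library and 0, 1 and 2 reads in CD-P18. In BN it had 90, 82 and 87 reads at NP and 101, 77 and 75 reads at P18. The pooled level was 179.4 times higher in BN (95% exact counting interval 61.04 to 872.8), and the lowest BN library stood far above the minimum of the rule.

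Timm8a2 (ENSRNOG00000013835) belongs to the small Tim proteins, chaperones that guide membrane proteins across the space between the mitochondrial membranes. Its reads were 1, 0 and 2 in CD-NP and 1, 3 and 1 in CD-P18, against 27, 35 and 14 in BN-NP and 39, 43 and 25 in BN-P18. The ratio was 24.04 (95% exact counting interval 11.95 to 56.5). BN-NP replicate 3, at 14 reads, lay just inside the minimum. The gene has a relative, Timm8a1, and what was said of reads that align to several places holds for this gene too.

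The promoters of both genes are shown because RefSeq gives the 300 bases around their start in an assembly of the BN strain, the strain that expressed them. They are read 5′ to 3′ on the plus strand of GRCr8, from 250 bases before to 50 bases after the start, at chr5:130483301-130483600 for Agbl4 and chr15:105533808-105534107 for Timm8a2. Capitals mark matches, on either strand, to the letters of the TATA box (TATAAA), the CCAAT box (CCAAT), the GC box (GGGCGG) and an ETS core (CCGGAAGT).
Agbl4: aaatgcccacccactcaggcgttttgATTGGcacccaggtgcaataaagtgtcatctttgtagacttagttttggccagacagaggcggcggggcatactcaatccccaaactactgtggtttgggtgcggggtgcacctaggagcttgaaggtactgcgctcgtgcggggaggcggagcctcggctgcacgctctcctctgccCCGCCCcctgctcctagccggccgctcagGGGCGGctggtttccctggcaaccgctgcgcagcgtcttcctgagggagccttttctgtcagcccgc
Timm8a2: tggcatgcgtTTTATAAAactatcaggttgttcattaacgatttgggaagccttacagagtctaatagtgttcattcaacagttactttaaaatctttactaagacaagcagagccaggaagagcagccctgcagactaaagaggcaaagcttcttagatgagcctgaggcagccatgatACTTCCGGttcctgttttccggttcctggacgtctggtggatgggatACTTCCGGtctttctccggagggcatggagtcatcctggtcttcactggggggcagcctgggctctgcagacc

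The Agbl4 window held 18 CpGs and 62% G and C, and 74.3% of the 33469 promoters in the RefSeq table had no more CpGs than this. It held 1 CCAAT box, at -224 from the start, and 2 GC boxes, at -46 and -17. The Timm8a2 window held 7 CpGs and 48.7% G and C, and 52.4% of promoters had no more CpGs. It held the TATA letters on both strands, overlapping each other at -240 and -238, and 2 ETS cores, at -70 and -23. Over all promoters of the table, 14.2% held a TATA box, 37.5% a CCAAT box, 33.1% a GC box and 3.81% an ETS core by the same search. The matches describe letters of the BN assembly only, and the CD sequence of these windows was not analysed here.

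Pde6c (ENSRNOG00000016593) encodes the catalytic subunit of the cGMP phosphodiesterase of cone photoreceptors, the enzyme that lowers cGMP when a cone is lit. It had 2, 0 and 1 reads in CD-NP and 2, 0 and 3 reads in CD-P18. In BN it had 56, 32 and 26 reads at NP and 15, 13 and 13 reads at P18, and the ratio of the pooled levels was 20.4 (95% exact counting interval 10.1 to 48.01), the lowest of the 9 genes. It was the gene nearest to the minimum of the rule, which its P18 libraries passed by 1 to 3 reads.

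ENSRNOG00000060527 had 1 read in all CD libraries together, in CD-P18 replicate 3. In BN it had 19, 25 and 41 reads at NP and 40, 31 and 21 reads at P18. The ratio was 186 (95% exact counting interval 32.96 to 7389), where the width comes from the single CD read.

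Summed over the 5 BN-silent genes, a CD library held 192 to 314 reads and a BN library 1 to 9. The BN reads came to 8 at NP and 16 at P18. Summed over the 4 CD-silent genes, a BN library held 134 to 195 reads and a CD library 0 to 7, with 6 CD reads at NP and 14 at P18. The reads left in a library of the silent strain were thus between 0.383 and 3.45% of a mean expressing library for the BN-silent genes, and between 0 and 4.09% for the CD-silent genes. The source of these few reads was not tested.

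The thresholds set how many genes were found. With the minimum of 12 reads kept, a limit of 0 reads in the silent strain left 1 BN-silent gene (Zp2) and 0 CD-silent genes. A limit of 6 reads gave 12 and 7 genes and a limit of 10 reads 18 and 17. With the limit of 3 reads kept, a minimum of 30 reads left 3 BN-silent genes (ENSRNOG00000051193, ENSRNOG00000022144 and LOC499235) and 1 CD-silent gene, Agbl4, while a minimum of 6 reads gave 11 and 4.

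**Figure D2:**
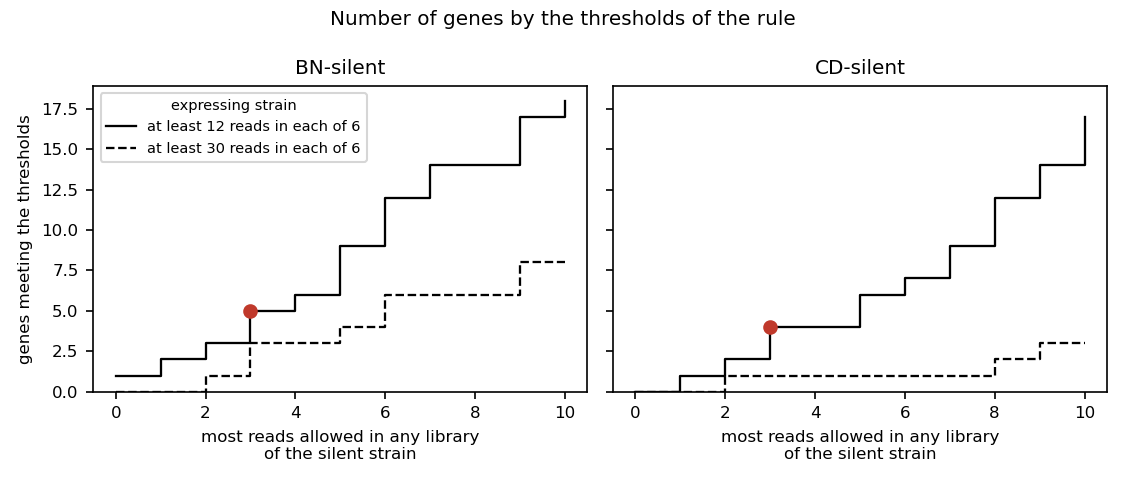
Number of genes (vertical axis) that met the rule as the most reads allowed in any library of the silent strain rose from 0 to 10 (horizontal axis), for a minimum of 12 reads (solid line) or 30 reads (dashed line) in each library of the expressing strain. The red points mark the 5 BN-silent and the 4 CD-silent genes, and at a limit of 10 reads the solid lines reach 18 and 17 genes.

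Genes just outside the rule are given for comparison. On the side of the minimum, RGD1562690 had 11 to 18 reads in CD and 2 to 3 in BN, and RGD1562107 had 9 to 23 in CD and 0 to 2 in BN. On the side of the limit there were 7 genes lower in BN. ENSRNOG00000056398 had 84 to 115 reads in CD and missed the BN-silent set by a single library, BN-NP replicate 2 with 6 reads, where the other BN libraries had 1 or 2. Galnt13, which adds the first sugar of mucin-type chains, had 40 to 68 reads in CD and 0 to 6 in BN, and Ppp2r2c, a regulatory subunit of protein phosphatase 2A, 30 to 66 in CD and 1 to 5 in BN. On the CD side there were 3 such genes. RGD1561730 had 2 to 5 reads in CD and 13 to 32 in BN, the transporter gene Abca17 0 to 6 in CD and 13 to 32 in BN, and ENSRNOG00000059367 1 to 5 in CD and 17 to 27 in BN.

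The rule did not set NP against P18, and the difference between the stages was tested in the strain that expressed each gene. Its minimum of 12 reads held at both stages, however, so genes that were low at either stage had been left out, and the number of genes that pass is partly fixed by this choice. Levels are CPM, the counts of a gene scaled to a common library total after TMM scaling, as mean ± SD of 3 rats. All 9 genes passed the filter on low counts, which their expressing strain alone allowed, and entered a fit of 14212 genes. A gene passed the test at a Benjamini-Hochberg adjusted p under 0.1, over all genes tested, and a fold change over the minimum of the study's methods, and such genes are the ones said to pass.

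In CD, 0 of the 5 BN-silent genes passed between P18 and NP with edgeR's quasi-likelihood test, and 0 with the Wald test of DESeq2. For comparison, 4.71% of all genes tested passed in CD. At an unadjusted p under 0.05 there was 1 of the 5 genes, ENSRNOG00000051193, where 17.1% of all genes tested had such a p. Its level was 6.94 ± 2.38 CPM in CD-NP and 9.76 ± 1.08 CPM in CD-P18, a log2 fold change of 0.49 with a standard error of 0.22 (edgeR adjusted p = 0.268). The stages overlapped through CD-NP replicate 1, at 9.66 CPM. Without this library the log2 fold change was 0.81 and the gene passed the test (edgeR adjusted p = 0.0517).

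The other BN-silent genes differed less, or with a larger error. ENSRNOG00000038478 was at 1.98 ± 0.21 CPM in CD-NP and 2.78 ± 0.50 CPM in CD-P18, and the stages did not overlap, as for 21.5% of all genes tested in CD. Its log2 fold change of 0.49 had a standard error of 0.33 and did not pass (edgeR adjusted p = 0.488). Zp2 was at 3.06 ± 1.18 and 2.83 ± 0.98 CPM, LOC499235 at 5.15 ± 1.03 and 4.39 ± 0.47 CPM, and ENSRNOG00000022144 at 7.79 ± 1.77 and 7.64 ± 0.98 CPM. The adjusted p of these 3 genes lay between 0.759 and 0.977 in edgeR, and their NP and P18 values overlapped. The median log2 fold change of the 5 genes was -0.03, against -0.01 over all genes tested.

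In BN, 0 of the 4 CD-silent genes passed with edgeR's quasi-likelihood test, against 1.4% of all genes tested, and 1 passed with the Wald test of DESeq2. This gene, Pde6c, was also the only one of the 4 with an unadjusted p under 0.05 in edgeR, where 10.2% of all genes tested had such a p. Its level was 6.08, 3.89 and 2.74 CPM in the BN-NP rats and 1.61, 1.18 and 1.38 CPM in the BN-P18 rats. Every NP value lay above every P18 value, and 14.7% of all genes tested in BN had stages that did not overlap. The means were 4.24 ± 1.70 and 1.39 ± 0.21 CPM. The log2 fold change was -1.60 (standard error 0.41), with an adjusted p of 0.109 in edgeR, just short of the threshold, and of 0.0476 from DESeq2. Leaving out BN-NP replicate 3 gave -1.84 and a passing adjusted p of 0.0866, while leaving out BN-NP replicate 1 gave -1.245 and an adjusted p of 0.431 (both with edgeR).

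The other 3 CD-silent genes had NP and P18 values that overlapped. Agbl4 was at 9.63 ± 0.42 CPM in BN-NP and 8.6 ± 1.99 CPM in BN-P18, and its coefficient of variation over the 6 BN libraries was 15.4%. Timm8a2 was at 2.89 ± 1.39 and 3.58 ± 0.82 CPM, and ENSRNOG00000060527 at 3.14 ± 1.13 and 3.11 ± 1.06 CPM. Their adjusted p lay between 0.862 and 0.993 in edgeR. The median log2 fold change of the 4 genes was -0.09, against 0.0 over all genes tested. A fold change that did not pass the test at this depth is not shown to be absent.

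**Figure D3:**
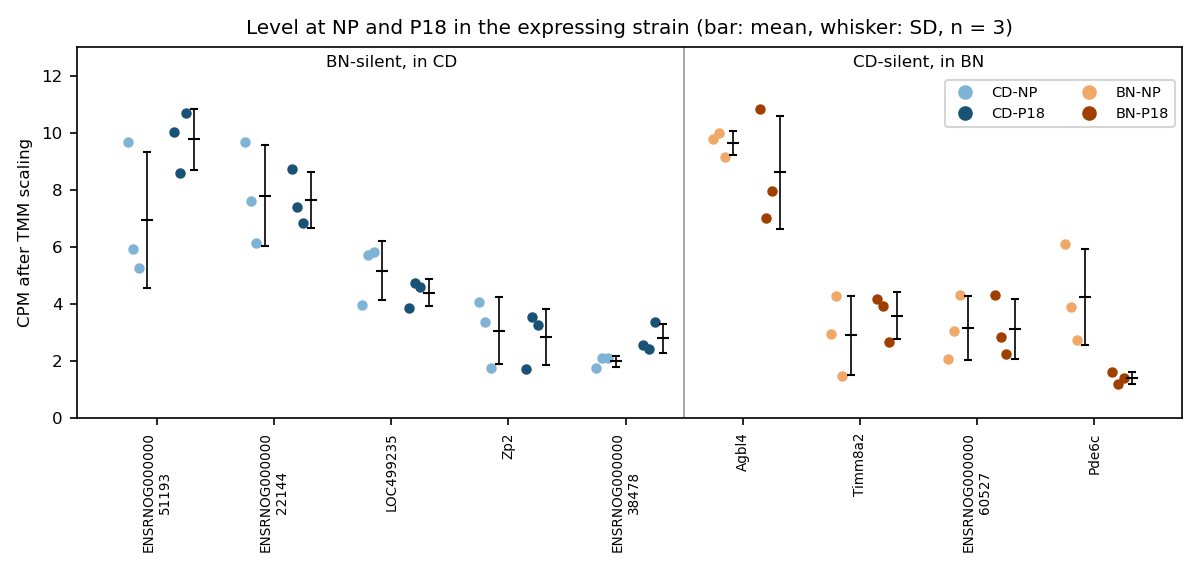
Level in CPM after TMM scaling (vertical axis) of each gene in the strain that expressed it, for the 3 NP and the 3 P18 rats, with a black bar at the mean and whiskers of 1 SD. The NP and P18 points are apart for ENSRNOG00000038478 and Pde6c only, as for 21.5% of all genes tested in CD and 14.7% in BN, and the Pde6c means are 4.24 and 1.39 CPM, a difference that did not pass edgeR's test.

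Read separately at each stage, the same thresholds found more genes. Among the NP libraries alone there were 10 BN-silent and 7 CD-silent genes, and among the P18 libraries alone 12 and 6. The genes that met the rule at 1 stage only numbered 12 on the BN side and 5 on the CD side. Slc27a5, a bile acid and fatty acid CoA ligase, had 0 reads in each of the 6 BN libraries and 26, 12 and 27 reads in CD-NP, but 15, 6 and 9 reads in CD-P18. Ribc2, a protein of the ciliary microtubule wall, had 0 to 1 reads in every BN library, with 16, 22 and 6 reads in CD-NP and 70, 60 and 66 in CD-P18. Rnf212, which acts in meiotic crossover, had 29 to 43 reads in all BN libraries and 0 to 7 in CD, so that 1 CD-NP library kept it out of the CD-silent set.

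In some of these genes, CD rats of the same group differed from each other by more than the thresholds of the rule. Akr1c2, an aldo-keto reductase that acts on steroid hormones, had 1343 to 2923 reads in the BN libraries. It had 2, 3 and 3 reads in CD-NP but 3047, 2192 and 10 reads in CD-P18, so that 4 of the 6 CD rats stood at 2 to 10 reads and the other two in or just above the BN range. ENSRNOG00000019050 had 52, 31 and 45 reads in CD-NP and 104, 0 and 0 in CD-P18, against 0 to 1 in BN. ENSRNOG00000015156 had 27, 14 and 14 reads in CD-NP and 0, 24 and 0 in CD-P18, against 0 in each BN library. Ugt2b1, a glucuronosyltransferase, had 21 to 52 reads in BN, and 17 reads in 1 CD rat with 0 to 2 in the other CD rats. Hrasls, a phospholipid-modifying enzyme, had 15 to 36 reads in BN and 27 reads in 1 CD rat, with 1 to 5 in the others. Mcpt1 met the CD-silent rule at NP, with 15 to 51 reads in BN-NP, and had 3, 2 and 12 reads in BN-P18.

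**Figure D4:**
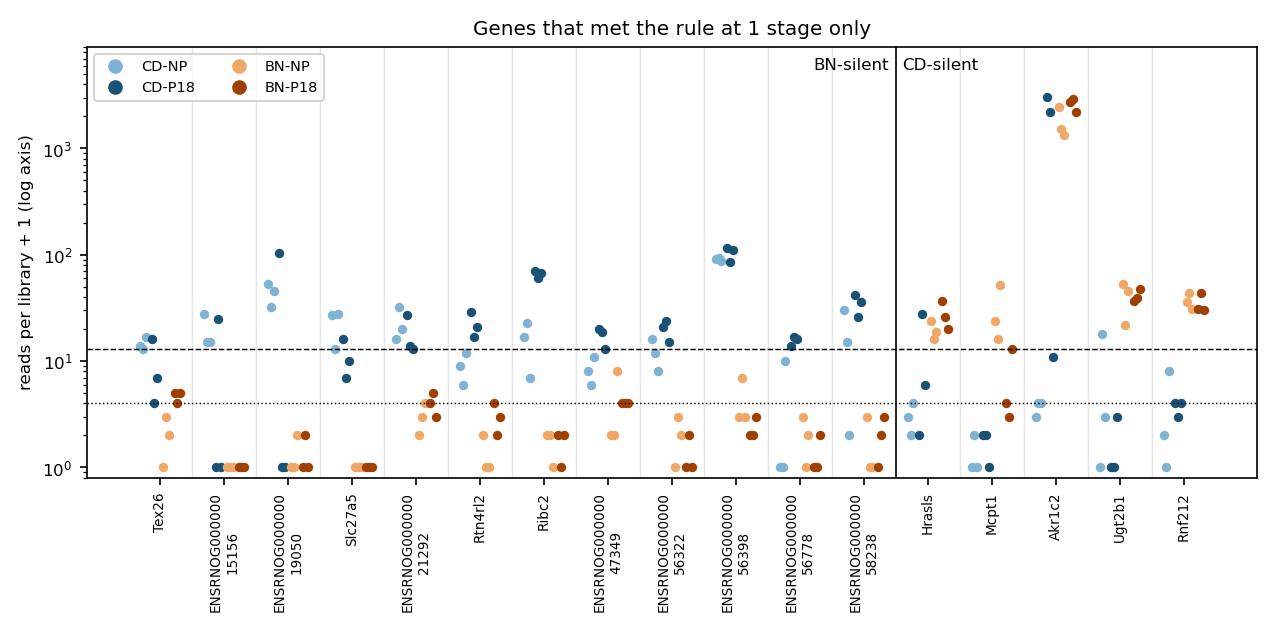
Reads per library plus 1, on a log axis, of the 17 genes that met the rule at 1 pregnancy stage only, with the 12 BN-silent genes left and the 5 CD-silent genes right of the black line and 1 point for each library. The dotted and dashed lines mark 3 and 12 reads. Akr1c2 shows CD-P18 points at 10 reads and at 2192 and 3047 reads, and ENSRNOG00000019050 shows CD-P18 points at 0 and at 104 reads.

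The 5 named genes were placed by the RefSeq order of genes in GRCr8, a later assembly than the one used for counting. LOC499235, Zp2 and Pde6c lie on chromosome 1, Agbl4 on chromosome 5 and Timm8a2 on chromosome 15, and all 5 are listed as protein-coding. The span of Zp2 overlaps that of Anks4b, and the span of Bend5 overlaps that of Agbl4. Of the 30 genes within 3 places of a named gene, 7 could be named in the count table. The published table used for naming lists genes with a small p in these same samples, so the neighbours with values lean towards genes that differ.

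At NP, 3 of these 7 neighbours passed the test between BN and CD, and at P18 4 passed. Of all genes tested, 3.83% were higher and 4.55% lower in BN at NP, and 4.9% were higher and 4.7% lower at P18. These shares are no like background, since neighbours had values only if they could be named. The share among the 2908 tested genes that could be named was not computed, so whether the neighbours exceed it is not known. Rbp4, the plasma carrier of retinol, lies next to Pde6c and, like Pde6c, was higher in BN. It was at 26.9 ± 6.47 CPM in BN-NP and 6.69 ± 2.72 in CD-NP, or a log2 fold change of 1.99 (edgeR adjusted p = 0.00201). At P18 it was at 18.7 ± 4.49 CPM in BN and 6.77 ± 2.87 in CD, a log2 fold change of 1.47 (edgeR adjusted p = 0.011).

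Around Zp2, the neighbours moved unequally. Tmem159, a lipid droplet assembly factor that RefSeq now lists as Ldaf1, was lower in BN at both stages, with 10.1 ± 1.59 CPM against 20.5 ± 2.33 at NP and 8.77 ± 0.34 against 18.7 ± 0.68 at P18. Its log2 fold changes were -1.03 and -1.09 (edgeR adjusted p = 0.00038 and 0.000212). Anks4b, a scaffold protein of the brush border whose span overlaps Zp2, was lower in BN at P18, with a log2 fold change of -0.35 (edgeR adjusted p = 0.0306). At NP it was at 34.8 ± 2.90 CPM in BN and 36.4 ± 0.998 in CD. Without BN-P18 replicate 2, Anks4b did not pass at P18 (edgeR adjusted p = 0.131). Crym, a thyroid hormone-binding protein on the other side of Zp2, was lower in BN at NP with a log2 fold change of -0.42 (edgeR adjusted p = 0.0685). Crym did not pass without CD-NP replicate 2 or 3 or without BN-NP replicate 2 or 3 (edgeR adjusted p of 0.132 to 0.177). Abca15 had log2 fold changes of 0.22 and -0.04 and did not pass. Near LOC499235, Olfml1 was lower in BN at P18, with a log2 fold change of -0.58 (edgeR adjusted p = 0.00713), and Ppfibp2 did not pass at either stage.

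**Figure D5:**
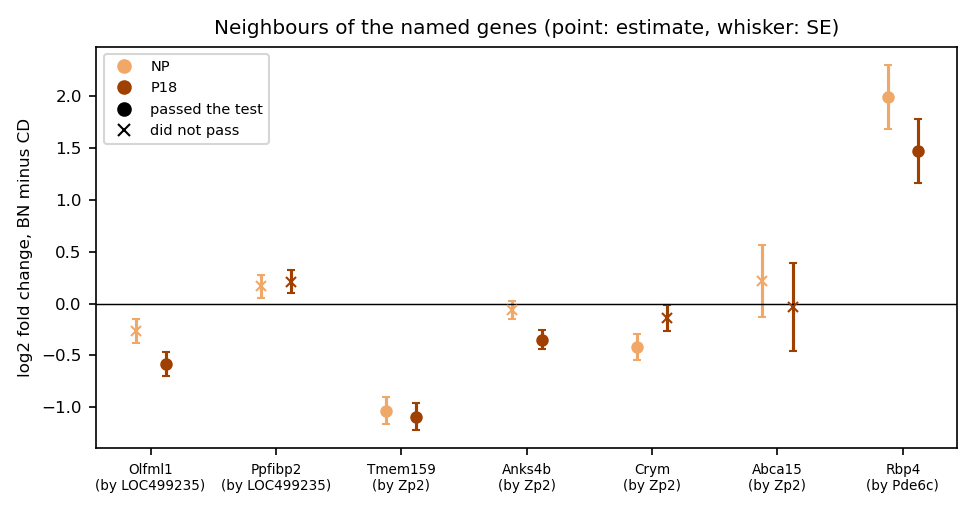
Log2 fold change between BN and CD (vertical axis, BN minus CD) of the 7 named neighbours at NP and P18, with whiskers of 1 standard error, where filled points passed the test and crosses did not. Rbp4, by Pde6c, is the only point pair above 1, and Tmem159, by Zp2, the only pair below -1.

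Relatives of these genes and of genes near the rule were counted from lists of gene families. Of 66 listed genes, 17 could be named, and 12 of these were tested and are not members of either set. Of all genes tested, 3.83% passed as higher and 4.55% as lower in BN at NP, and 4.9% and 4.7% at P18. Of the 12, 8 passed the test as higher and 2 as lower in BN at NP. At P18, 5 passed as higher and 3 as lower, and the naming again favours genes that differ. The shares of all genes tested are therefore no like background for these counts, and the share among genes that could be named was not computed. The 12 include Slc27a5, Akr1c2 and Ugt2b1, which met the count rule at 1 stage, and Hfm1, which was close to it, so these counts rest in part on genes picked for the same strain contrast. Without CD-NP replicate 3, 6 relatives passed at NP in place of 10, in a refit whose filter on low counts was applied anew and need not keep the same 12. Agbl5, the only named relative of Agbl4, was at 18.6 ± 1.83 CPM in BN-NP and 23.5 ± 1.64 CPM in CD-NP, and did not pass at either stage. At NP it passed without CD-NP replicate 1 or without CD-P18 replicate 2 (log2 fold change of -0.39 and -0.34, edgeR adjusted p = 0.0963 and 0.0785). Of the meiotic list, Hfm1, a DNA helicase of meiotic crossover, had 2, 8 and 1 reads in CD-NP and 2, 3 and 5 reads in CD-P18. Its level was 10.8 ± 1.63 CPM in BN-NP and 0.38 ± 0.40 CPM in CD-NP. Its log2 fold changes were 4.79 and 4.70 (edgeR adjusted p = 9.43e-06 and 1.35e-05), and without CD-NP replicate 2 the NP value was 6.02. Akr1b7, an aldo-keto reductase, went the other way, with log2 fold changes of -3.16 and -4.66 (edgeR adjusted p = 0.00647 and 0.000292). Its NP value was -2.48 without CD-NP replicate 2 and -3.79 without BN-NP replicate 1.

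Histocompatibility genes (symbols starting RT1-) and olfactory receptors (starting Olr), families with many similar copies, held no named gene of either set. Of 16 tested RT1- genes, 2 passed the test as higher and 8 as lower in BN at NP. At P18, 6 passed as higher and 9 as lower. The shares of all genes tested, given above, were 3.83 and 4.55% at NP and 4.9 and 4.7% at P18. The named genes of both families again come from the published table of genes with a small p, which favours genes that differ. The share among all tested genes that could be named was not computed, so whether these families exceed it is not known. Among 2 tested Olr genes, 2 passed as lower in BN at NP and 1 at P18. Olr1668 was at 2.82 ± 0.82 CPM in BN-NP and 6.23 ± 0.93 in BN-P18, below CD at both stages, with log2 fold changes of -2.93 and -3.23 (edgeR adjusted p = 0.0015 and 0.00017). Its NP value was -2.33 without CD-NP replicate 3. Reads of near-identical copies can be lost or split in these families, so their values are uncertain.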

How the data were processed

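Kidney RNA of 12 rats, 3 in each of 4 groups named by the sample labels, was sequenced. Trimming was done by the authors with Trimmomatic and alignment with STAR 2.5.2 to Rnor_6.0, an assembly of the BN strain, and they deposited raw counts per gene from HTSeq 0.6.1 (versions from the submitters' processing notes). The deposited counts were used as they stand. Between 72.5 and 75.6% of the entries per library were summary lines for no gene and stayed out.

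Genes were selected by the count rule. Pregnancy and strain were tested with edgeR 4.0.16 (R 4.3.3): filterByExpr, TMM, 1 quasi-likelihood fit over the 4 groups, Benjamini-Hochberg adjustment over 14212 genes. DESeq2 1.42.0 and other settings were alternatives. Standard errors were derived from the F statistic. Nothing in the labels names litters or cages, so p-values measure the spread between these rats.

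Names were inferred, since the files do not pair identifiers with symbols: the fold changes (log2) and mean levels in the published gene table were matched to the same comparisons of the counts, within 0.002 (plus a small share of the change) and 0.003. This paired 3043 of 3064 symbols with 1 identifier; with the sign turned, 0.881% found one. No value of that table is reported. RefSeq (GRCr8) gave gene order and promoters; promoters were found for 2 of the 5 named genes. The rule for names was to give every gene of sets of at most 15, the nearest genes outside the rule, neighbours and fixed family lists. The genes and lists were chosen with earlier results of these data known. Methylation calls of the study were not used here.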

Additional observations from a re-analysis of the deposited data

How the results depend on the processing

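A limit of 0 reads in the silent strain gave 1 BN-silent and 0 CD-silent genes, and a minimum of 30 reads 3 and 1. A minimum of 6 reads gave 11 BN-silent genes. NP libraries alone gave 10 and 7 genes, and P18 libraries alone 12 BN-silent genes. Each follows from the looser or stricter thresholds or the fewer libraries. With the counts scaled to the smallest library total of reads on genes, the rule gave 5 BN-silent and 3 CD-silent genes. With each library left out in turn, the BN-silent genes numbered 5 to 7 and the CD-silent genes 4 to 5.

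For pregnancy, the count of BN-silent genes that passed in CD was 0 under every alternative that kept all libraries and 0 to 1 with each library left out. The count of CD-silent genes in BN was 0 with other scalings, in the 6 BN libraries alone and under stricter thresholds. It was 1, Pde6c, with no filter on low counts (adjusted p = 0.0439 in edgeR), with DESeq2 (0.0476) and with the replicate number as a block (0.0982 in edgeR), and 0 to 1 with each library left out. The adjusted p of Pde6c ranged from 0.0439 to 0.431 over its alternatives; the cause was not tested. The study's filter of at least 1 CPM in all samples kept 12648 genes and 0 of the 9, so it gave no value here. Yet the paper names LOC499235 and Agbl4 among its top strain differences at both NP and P18. The published gene table also lists the named genes of both sets, and why this departs from the filter was not tested. Among same-numbered pairs of libraries, 3 of 18 correlated above 0.1 (range -0.19 to 0.27). Pairs with different numbers were not compared, so this cannot show whether the numbers pair rats. The main fit did not use the numbers. The replicate block moved the strain count of the family lists at P18 from 8 to 9.

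The sign of small changes depended on single libraries. With each library left out in turn, ENSRNOG00000022144 ranged from -0.17 to 0.16 on the log2 scale between P18 and NP, Zp2 from -0.40 to 0.14 and ENSRNOG00000060527 from -0.31 to 0.29. Between the strains, Abca15 ranged from -0.23 to 0.43 at NP and from -0.39 to 0.19 at P18. None of these values passed the test. The lists of relatives held 6 to 12 passing genes at NP and 7 to 10 at P18 with each library left out, and the neighbours 2 to 3 and 3 to 4, in fits of neighbours that were chosen after seeing the data. The planned count and methylation of CpGs within these genes were not run, because gene positions on the build of the files were not at hand. Counts of 13 to 117 reads per library limit the precision of each gene's level.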
